A study of Rattus norvegicus with 23 samples.

Results

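The response of the heart to partial nephrectomy was compared with the response of the kidney in rats. For each gene the difference between nephrectomised (NX) and sham-operated (Sham) rats in the heart was set against the same difference in the kidney, in 1 fit of the Heart NX, Heart Sham, Kidney NX and Kidney Sham libraries. These are 15 of the 23 RNA sequencing libraries of the study, with 4 in each group except Heart Sham with 3. Of 32552 genes in the files, 14702 passed the filter on low counts and were tested. A positive organ difference means that the change with nephrectomy was more upward, or less downward, in heart than in kidney.

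All rats were Sprague-Dawley, an outbred laboratory strain, aged 13 weeks. NX rats had a 5/6th partial nephrectomy, a standard surgical model of chronic kidney disease, and Sham rats had sham surgery. Heart and kidney were snap-frozen 4 weeks later, and poly(A) RNA was sequenced from strand-specific libraries. The remaining libraries came from nephrectomised rats with an added arteriovenous fistula (AVF+NX) and served only for values set beside those of NX. Replicates are called biological in the labels. Neither the region of the heart that was taken nor any tie between a heart and a kidney of 1 animal is given there.

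After nephrectomy the kidney tissue that stays behind filters for the whole body, and in this model it enlarges, scars and draws in immune cells. The heart is not operated on. It is reached through blood pressure, fluid load, hormones and retained solutes, and hypertrophy, loss of capillaries and fibrosis are the changes for which it is best known. The same gene can therefore meet a local injury in one organ and a systemic load in the other.

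Total counts ran from 9069354 to 22679092 per library. The organ labels matched their defining markers: Myh6, the main myosin of the adult rat heart, stood at 30296 to 43160 CPM (read counts scaled to library size, with TMM factors) in hearts and at 1.01 CPM or less in kidneys. Umod, the uromodulin gene of the kidney's thick ascending limb, stood at 2266 to 3033 CPM in kidneys and at 0.263 CPM or less in hearts. Some libraries stood apart from their group. Heart NX libraries 2 and 3 lay at 46.2 and 43.3 on principal component 1 of the hearts (39.8% of the variance), where the other 5 lay between -21.3 and -11.1. They were also the deepest heart libraries, with 22679092 and 18034380 counts, and were lowest in a small RNA index (mean log2 CPM of 93 tested small RNA genes, centred within organ), at -1.10 and -0.86 against 0.24 to 0.55. Kidney NX library 3 lay at 10.1 on principal component 1 of the kidneys, within the Sham range of 9.73 to 32.7, while the other NX kidneys lay between -38.4 and -25.9. Kidney NX library 4 had 4.15% of its counts in mitochondrial genes against 7.63% to 9.63% in the other kidney libraries. The part of these features in the results below was not tested, and counts without the libraries concerned are given beside the main ones.

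The organ difference passed the test in 16 genes, 0.109% of those tested (edgeR quasi-likelihood test, Benjamini-Hochberg adjusted p below 0.05). Of these, 9 (0.0612%) were higher in heart relative to kidney and 7 (0.0476%) were lower. At an unadjusted p below 0.05 there were 2217 genes, or 15.1%. Taken alone, the heart response passed in 18 genes (0.122%) and the kidney response in 388 (2.64%). In heart 15 (0.102%) were higher and 3 (0.0204%) lower after NX, and in kidney 233 (1.58%) were higher and 155 (1.05%) lower. An unadjusted p below 0.05 was seen for 2836 genes (19.3%) in heart and for 2266 (15.4%) in kidney. Only Penk, the proenkephalin gene, passed in both organs, and it was named after its values were seen. Its level after NX was higher in each organ, by 0.91 (SE 0.17, adjusted p = 0.0418) in heart and 1.55 (SE 0.35, adjusted p = 0.0269) in kidney on the log2 scale.

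The 16 calls lay close to the threshold, with adjusted p from 0.0334 to 0.0477, and they depended on single libraries. The number called fell to 0 without Heart NX 3, Heart Sham 1, Heart Sham 2, Kidney NX 1, Kidney NX 2 or Kidney Sham 4. It was 1 without Heart NX 2 or Kidney Sham 2, 6 without Heart Sham 3 and 10 without Kidney Sham 1. It rose to 74 without Heart NX 4, to 76 without Heart NX 1 and to 142 without Kidney NX 3, the library that lay among the Sham kidneys. Leaving out Heart NX 2 and 3 together, an alternative chosen after seeing the data, gave 0 calls. So did the fit with same-numbered hearts and kidneys as 1 animal, and the fit that adds the small RNA index. In each of these fits the 16 genes kept the sign of their difference and an unadjusted p below 0.05. That says how steady the values are, not that the genes are called: they had been chosen for a large difference in the same libraries.

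**Figure D1:**
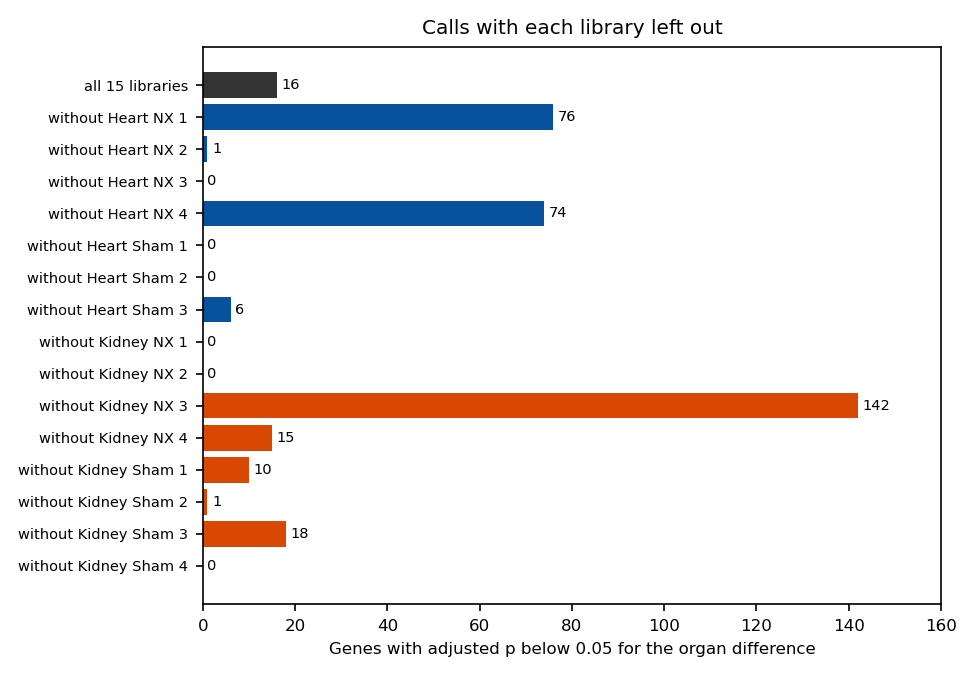
Number of genes with an adjusted p below 0.05 for the organ difference (x axis) in the fit of all 15 libraries and with each library left out in turn (y axis; heart libraries in blue, kidney libraries in orange). The count of 16 ranged from 0 to 142.

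All 16 genes had effects of opposite sign in the 2 organs. A large difference favours such a pattern, so it describes these genes and is not separate evidence. Of the 16, 5 were called in the heart alone as a single comparison and 9 in the kidney, and 2 (Fam78a and Ankrd13d) in neither. Over all genes tested, 132 had opposite signs with an unadjusted p below 0.05 in each organ, of which 87 were higher in heart and lower in kidney. The same sign with an unadjusted p below 0.05 in each organ was seen in 223 genes, with 131 higher and 92 lower in both. Since 19.3% of all genes tested in heart and 15.4% in kidney had such a p, many would meet both without any tie between the organs. These counts are therefore not sets of genes shown to respond in both.

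**Figure D2:**
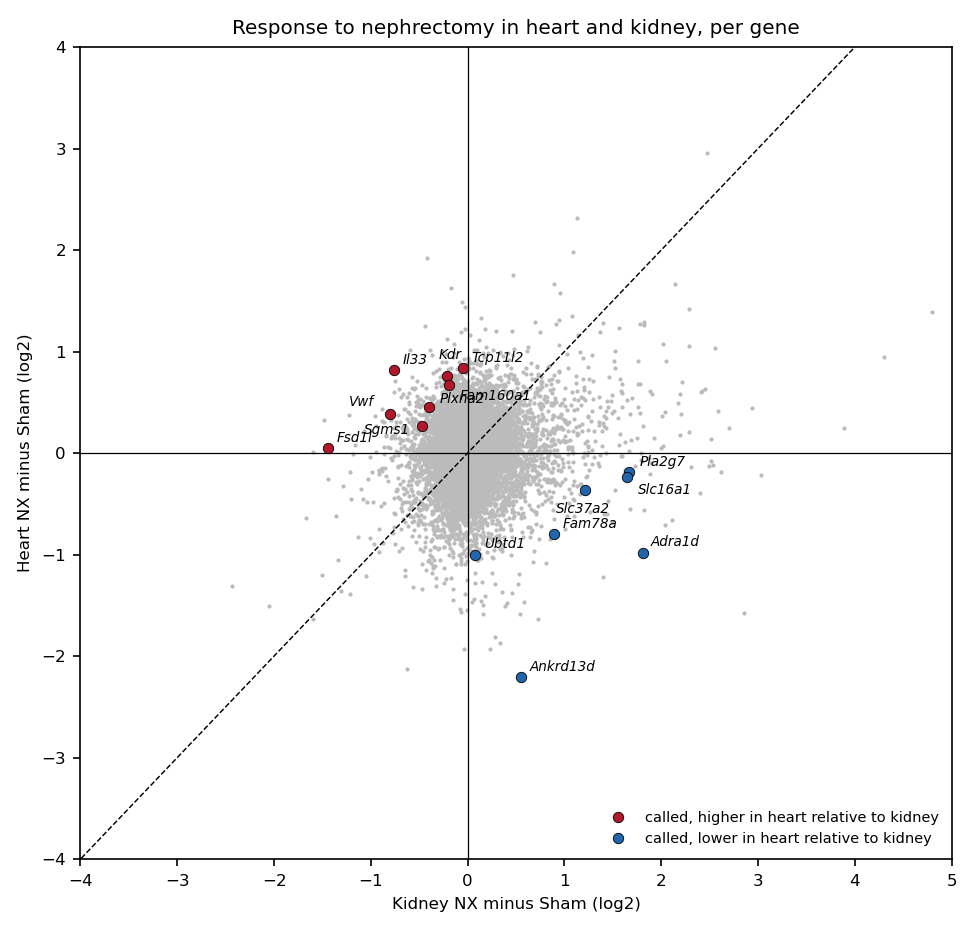
Log2 difference between NX and Sham in kidney (x axis) and heart (y axis) for the genes at 1 CPM or more in both organs (grey) and for 15 of the 16 genes called for the organ difference (red, 8 higher in heart relative to kidney; blue, 7 lower). On the dashed line the change is equal in both organs, and all 15 lie in the quadrants of opposite sign.

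Among the genes that were higher in heart relative to kidney were 2 of endothelial cells. Kdr encodes the main receptor for vascular endothelial growth factor on blood vessels. Its level was 167, 158 and 164 CPM in the Sham hearts and 265, 275, 323 and 237 CPM in the NX hearts. In the kidneys it was 135, 162, 153 and 137 CPM after Sham and 124, 120, 142 and 121 CPM after NX. Every NX heart lay above every Sham heart, while the kidney groups overlapped. Kdr rose 1.69-fold in heart (log2 0.76, SE 0.11, adjusted p = 0.0128), and its kidney difference of -0.21 (SE 0.10, adjusted p = 0.34) did not pass. The organ difference was 0.97 (SE 0.15, 95% interval 0.65 to 1.29, adjusted p = 0.0334). Kdr was called in 6 of the 15 fits that leave out a library, where its difference ran from 0.88 to 1.03, and the difference was 0.83 without Heart NX 2 and 3.

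Vwf encodes von Willebrand factor, which endothelial cells store and release to bind platelets. Its level was 134, 124, 90.0 and 114 CPM in the Sham kidneys and 63.9, 67.9, 57.5 and 74.9 CPM in the NX kidneys. The hearts had 150, 184 and 240 CPM after Sham and 246, 211, 265 and 273 CPM after NX. The kidney groups were fully apart and the heart groups overlapped through 1 Sham library. Vwf fell by 0.80 in kidney on the log2 scale (SE 0.15, adjusted p = 0.0105), the heart difference was 0.38 (SE 0.16, adjusted p = 0.211), and the organ difference was 1.18 (SE 0.22, adjusted p = 0.0468). Of 22 endothelial markers listed, 19 were tested, with 2 called higher and 0 lower, 8 values above 0 and 11 below, and a median organ difference of -0.05 against 0.01 over all genes tested. At an unadjusted p below 0.05 there were 5 above 0 and 2 below, against 1114 and 1103 of all 14702 genes tested. The calls stand against 0.0612% higher and 0.0476% lower over all genes. Summed over the 19 markers, NX hearts held 1981 to 2299 CPM and Sham hearts 1709 to 1976 CPM, without overlap, while the kidneys overlapped at 1147 to 1287 CPM after NX and 1174 to 1358 CPM after Sham. These sums include Kdr and Vwf, so the separation in heart is not separate evidence of a rise across the other markers. Apln, the peptide apelin of sprouting vessels, had an organ difference of -1.48 (SE 0.37, adjusted p = 0.125) and rose in kidney by 1.17 (SE 0.28, adjusted p = 0.0362). In bulk tissue, fewer cells of a type and less RNA per cell cannot be told apart, here and in all results that follow.

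Il33 encodes interleukin-33, an alarm cytokine held in the nuclei of stromal, epithelial and endothelial cells. Sham kidneys had 168, 231, 220 and 216 CPM and NX kidneys 115, 136, 126 and 119 CPM. Sham hearts had 9.19, 10.7 and 15.4 CPM and NX hearts 15.1, 18.7, 28.5 and 20.0 CPM. The kidney groups did not overlap, and in heart only the lowest NX library fell within the Sham range. Il33 fell by 0.76 in kidney (SE 0.16, adjusted p = 0.0202), its heart difference was 0.82 (SE 0.20, adjusted p = 0.103), and the organ difference was 1.57 (SE 0.26, adjusted p = 0.0334). It was 1.33 without Heart NX 2 and 3.

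Plxna2 encodes plexin A2, a receptor for semaphorin guidance signals. It had 58.6, 64.6 and 56.7 CPM in Sham hearts and 76.6, 89.8, 82.5 and 77.1 CPM in NX hearts. The kidneys had 90.5, 97.2, 107 and 110 CPM after Sham and 80.2, 73.5, 80.0 and 72.6 CPM after NX. Both organs separated completely, in opposite directions. Plxna2 fell by 0.40 in kidney (SE 0.09, adjusted p = 0.0239), the heart difference was 0.45 (SE 0.10, adjusted p = 0.088), and the organ difference was 0.85 (SE 0.13, adjusted p = 0.0334). Its span overlaps 1 gene on the other strand, and since the strand setting of the counting is not given in the sources used here, its values are uncertain to that extent.

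Sgms1 encodes a sphingomyelin synthase of the Golgi, and it fell by 0.47 in kidney (SE 0.09, adjusted p = 0.0119), from 125, 137, 119 and 143 CPM to 101, 87.2, 89.7 and 99.7 CPM. Its heart libraries held 93.3, 99.4 and 97.2 CPM after Sham and 107, 117, 127 and 117 CPM after NX, a difference of 0.27 (SE 0.10, adjusted p = 0.158). Both organs' groups were apart, and the organ difference was 0.74 (SE 0.13, adjusted p = 0.0384).

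Tcp11l2 and Fam160a1 differed through the heart. Tcp11l2 held 117, 129 and 143 CPM in Sham hearts and 251, 216, 246 and 213 CPM in NX hearts, against 32.6 to 42.6 CPM in Sham kidneys and 35.8 to 38.4 CPM in NX kidneys. It rose 1.78-fold in heart (log2 0.84, SE 0.11, adjusted p = 0.00354), with a kidney difference of -0.05 (95% interval -0.26 to 0.16) and an organ difference of 0.89 (SE 0.15, adjusted p = 0.0334). Fam160a1 rose in heart by 0.67 (SE 0.12, adjusted p = 0.0418), from 16.9 to 21.2 CPM in Sham to 26.6 to 32.1 CPM in NX libraries, with an organ difference of 0.86 (SE 0.16, adjusted p = 0.0468). Fsd1l differed through the kidney. It fell by 1.44 there (SE 0.18, adjusted p = 0.00136), from 45.6, 56.5, 52.6 and 72.1 CPM to 22.0, 18.5, 15.2 and 27.1 CPM, with no overlap. Its hearts held 103, 115 and 109 CPM after Sham and 92.0, 132, 134 and 92.3 CPM after NX, where libraries 2 and 3 are the high ones. The organ difference was 1.5 (SE 0.26, adjusted p = 0.0384), or 1.2 without those 2 libraries, and Fsd1l also overlaps 1 gene on the other strand.

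**Figure D3:**
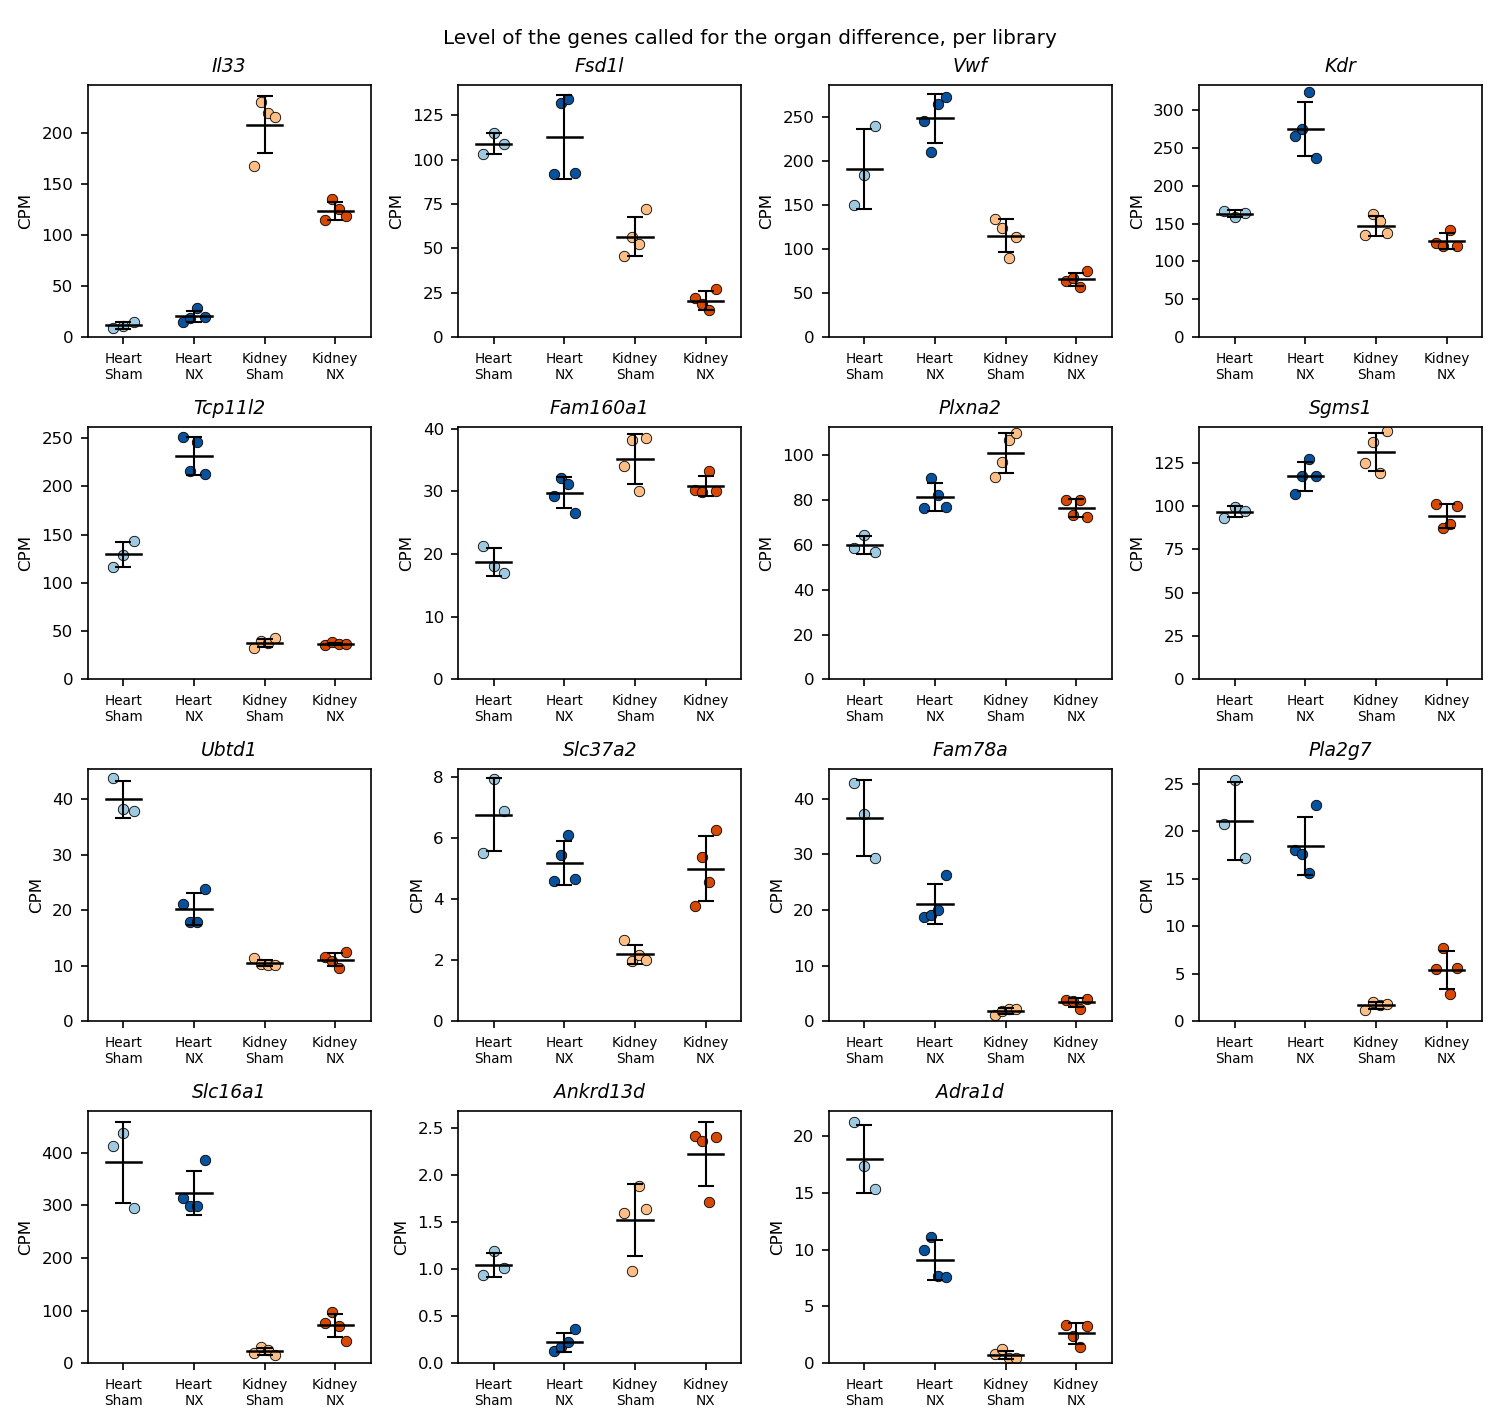
Level in CPM (y axis, from 0) of 15 of the 16 genes called for the organ difference in each library of the 4 groups (x axis). Points are libraries (n = 4, Heart Sham n = 3), horizontal lines are means and bars are SD, and the panels run from the largest positive to the largest negative difference, so that Il33 comes first and Adra1d last.

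Among the genes that were lower in heart relative to kidney, Adra1d had the largest difference. It encodes the alpha-1D adrenergic receptor, which noradrenaline acts on in blood vessels. Sham hearts held 21.2, 17.4 and 15.3 CPM and NX hearts 10, 11.1, 7.66 and 7.59 CPM. Sham kidneys held 0.794, 1.25, 0.487 and 0.50 CPM and NX kidneys 3.37, 2.44, 1.44 and 3.29 CPM. Both organs separated completely, downward in heart and upward in kidney. Adra1d rose 3.5-fold in kidney (log2 1.81, SE 0.32, adjusted p = 0.00927) from a low level, its heart difference was -0.98 (SE 0.25, adjusted p = 0.112), and the organ difference was -2.79 (SE 0.41, 95% interval -3.65 to -1.93, adjusted p = 0.0334). It was called in 9 of the 15 fits that leave out a library, with values from -3.17 to -2.62.

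Slc16a1 encodes the monocarboxylate transporter MCT1, which carries lactate and pyruvate across the cell membrane. It held 19.2, 31.0, 24.4 and 16.7 CPM in Sham kidneys and 76.1, 97.9, 70.4 and 43.1 CPM in NX kidneys. Hearts held 413, 437 and 294 CPM after Sham and 313, 298, 298 and 386 CPM after NX. All NX kidneys lay above all Sham kidneys and far below any heart, and the heart groups overlapped. Slc16a1 rose 3.13-fold in kidney (log2 1.65, SE 0.23, adjusted p = 0.00242), the heart difference was -0.24 (SE 0.23, adjusted p = 0.602), and the organ difference was -1.88 (SE 0.33, adjusted p = 0.0384). It was the called member of the list for glucose uptake and glycolysis, whose 32 tested members had a median organ difference of -0.18 with 0 called higher. Its next members by p were Pdha1, a subunit of pyruvate dehydrogenase, at 0.75 (SE 0.19, adjusted p = 0.125) and Pfkl, a phosphofructokinase, at -0.50 (SE 0.14, adjusted p = 0.156). Pdha1 stood at 1523 and 1488 CPM in Heart NX 2 and 3 and at 1039 and 1009 CPM in the other NX hearts, against 995 to 1033 CPM in Sham hearts, and its organ difference was 0.45 without those 2 libraries.

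A pair of genes known from macrophages showed the same form. Pla2g7 encodes the enzyme that breaks down platelet-activating factor, and held 1.15, 2.03, 1.67 and 1.86 CPM in Sham kidneys and 5.54, 7.67, 2.88 and 5.57 CPM in NX kidneys. Slc37a2 encodes a sugar-phosphate transporter that is abundant in mouse macrophages, and held 2.65, 1.97, 2.16 and 2.00 CPM in Sham kidneys and 3.77, 5.40, 4.58 and 6.26 CPM in NX kidneys. The kidney groups were apart for both genes. Pla2g7 rose 3.19-fold in kidney (log2 1.67, SE 0.26, adjusted p = 0.00447) and Slc37a2 2.31-fold (log2 1.21, SE 0.20, adjusted p = 0.0078). Their heart groups overlapped, at 17.2 to 25.4 CPM after Sham and 15.6 to 22.8 CPM after NX for Pla2g7 and at 5.53 to 7.93 and 4.61 to 6.12 CPM for Slc37a2. The organ difference was -1.87 for Pla2g7 (SE 0.35, adjusted p = 0.0468) and -1.57 for Slc37a2 (SE 0.29, adjusted p = 0.0477). Each gene was called in 3 of the 15 fits that leave out a library. The span of Pla2g7 overlaps 1 gene on the same strand.

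Ubtd1, Fam78a and Ankrd13d completed the group. Ubtd1, a gene for a protein with a ubiquitin-like domain, fell by 1.00 in heart (SE 0.12, adjusted p = 0.00354), from 43.8, 38.3 and 37.8 CPM to 21.2, 17.9, 17.8 and 23.8 CPM. Kidneys stayed between 9.62 and 12.4 CPM in both groups, with a difference of 0.08 (95% interval -0.17 to 0.34) and an organ difference of -1.08 (SE 0.17, adjusted p = 0.0334). Fam78a held 42.9, 37.3 and 29.4 CPM in Sham hearts and 18.7, 19.1, 20.0 and 26.3 CPM in NX hearts, and 1.15 to 2.16 CPM against 2.16 to 3.94 CPM in kidneys. Neither organ passed alone (heart -0.80, adjusted p = 0.0906; kidney 0.89, adjusted p = 0.05, just over the threshold before rounding), while the organ difference of -1.69 (SE 0.30, adjusted p = 0.0384) did. Ankrd13d, which encodes an ankyrin repeat protein that binds ubiquitin, was under 1 CPM on average in heart, at 0.94, 1.19 and 1.01 CPM after Sham and 0.132, 0.176, 0.221 and 0.367 CPM after NX. Those NX values rest on 3 or fewer reads in each library. Its organ difference was -2.76 (SE 0.51, adjusted p = 0.0468).

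**Figure D4:**
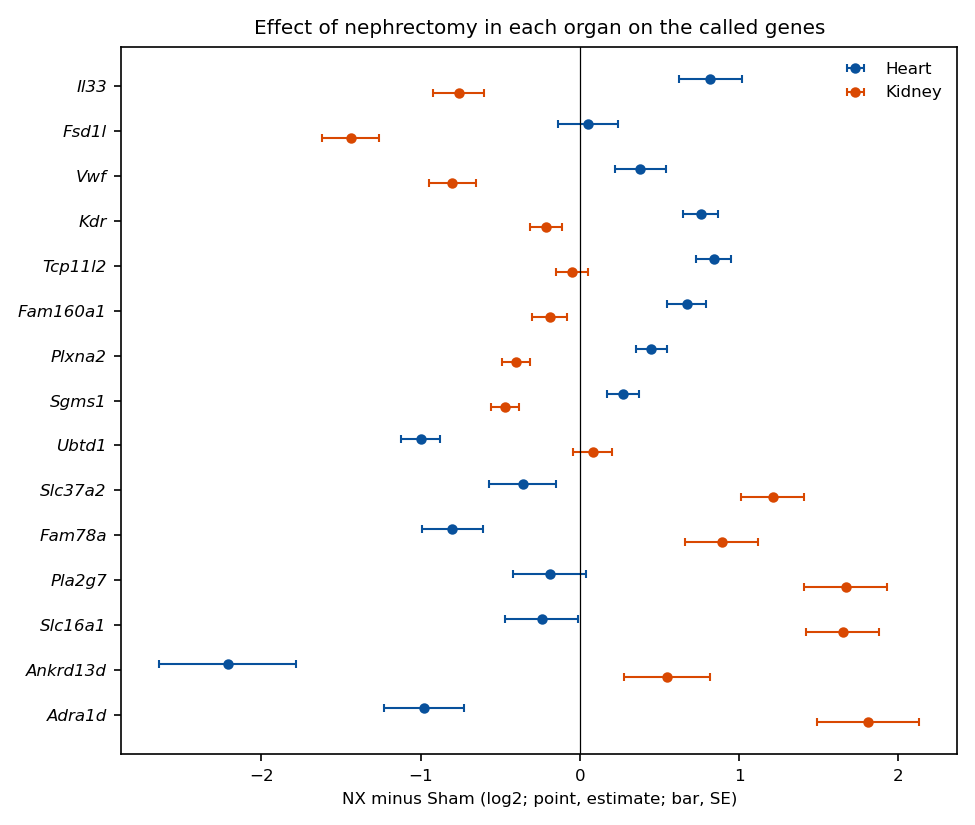
Log2 difference between NX and Sham in heart (blue) and kidney (orange) for 15 of the 16 called genes (y axis); points are estimates and bars their SE from the edgeR fit. Tcp11l2 and Ubtd1 lie near 0 in kidney, and Fsd1l lies near 0 in heart.

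The genes next outside the threshold, at adjusted p of 0.0616 and 0.0648, were Agap2 (organ difference -1.54), Plce1 (0.89), Phlda3 (-1.05) and Cpe (1.01), and Mzb1, which was under 1 CPM in every heart library. At an adjusted p below 0.1 the count was 63, with 40 higher and 23 lower.

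Gene groups were described by their counts and medians, without a set test. Only 3 of 46 lists held a called gene for the organ difference: the endothelial markers, the lipid-handling macrophage genes with Pla2g7, and glycolysis with Slc16a1. Over all genes tested the median organ difference was 0.01, with 1114 genes (higher) and 1103 genes (lower) at an unadjusted p below 0.05. Examples in the group paragraphs that follow were chosen after their values were seen.

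Markers of macrophages had a median organ difference of -1.09, with all 20 tested members below 0, 12 of them at an unadjusted p below 0.05, and 0 called. Over all genes tested, 1103 of 14702 were below 0 at that p. The median of the markers was 0.88 in kidney, where 4 members rose, against 1.58% of all genes. It was 0.05 in heart, where 0 passed. The mannose receptor gene Mrc1 held 8.03, 8.60, 6.33 and 9.70 CPM in Sham kidneys and 31.6, 22.8, 12.0 and 37.5 CPM in NX kidneys, and it rose by 1.68 (SE 0.25, adjusted p = 0.00408). Its hearts held 40.3, 38.7 and 40.1 CPM after Sham and 52.2, 47.2, 58.9 and 49.1 CPM after NX. These heart groups did not overlap either, at a difference of 0.38 (SE 0.25, adjusted p = 0.412), and the organ difference of -1.30 (SE 0.35, adjusted p = 0.143) did not pass. Cd68, a lysosomal protein of macrophages, rose by 1.23 in kidney (SE 0.25, adjusted p = 0.015) and had an organ difference of -1.11 (SE 0.37, adjusted p = 0.197). Among the lipid-handling genes Trem2, a lipid-sensing receptor, rose by 2.04 in kidney (SE 0.40, adjusted p = 0.0146), and its organ difference of -2.75 (SE 0.58) had an adjusted p of 0.0702. Ctsd, the lysosomal protease cathepsin D, rose by 0.60 in kidney (SE 0.11, adjusted p = 0.0115), with an organ difference of -0.74 (SE 0.17, adjusted p = 0.0937). Summed over the 20 macrophage markers, NX kidneys held 624, 727, 408 and 1208 CPM and Sham kidneys 335 to 432 CPM, so that NX library 3 lay in the Sham range. The organ difference was called for 5 of the 20 markers without that library, in a fit that called 142 of all genes. It was called for 0 of the markers without any other single library. Kidney NX 3 is the NX kidney lowest in these markers, so the 5 calls are not separate evidence. The cause of the gain was not tested.

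Markers of lymphocytes moved with the same organ. The 11 tested B and plasma cell markers had a median of 1.49 in kidney, where 3 rose, against 1.58% of all genes. Only 5 of the 11 were at 1 CPM or more in both organs, so most could not be read in heart. Jchain, which joins antibody units in plasma cells, held 1.24, 0.525, 0.904 and 1.78 CPM in Sham kidneys and 36.2, 35.4, 4.58 and 32.6 CPM in NX kidneys, and rose by 4.62 (SE 0.58, adjusted p = 0.00169). In every heart library it was at 0.94 CPM or less, and no organ difference is given for it. The 22 tested T and NK cell markers had a median organ difference of -0.71, and only 12 of them were at 1 CPM or more in both organs. Of the 22, 4 rose in kidney, against 1.58% of all genes, and 0 in heart. Markers of other tissues at the edge of the kidney had medians above 0 there without a call, and their sums overlapped between the groups. The 10 tested fat markers summed to 201, 74.3, 67.1 and 78.8 CPM in NX kidneys and 42.1 to 73.6 CPM in Sham kidneys, so the high end is NX 1 alone. The 6 tested urothelial markers summed to 135 to 192 CPM and 125 to 138 CPM. The part of these tissues in the kidney values was not tested.

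Fibrillar collagens and matrix proteins had a median organ difference of -0.68, with 29 of 33 tested members below 0, 13 of these at an unadjusted p below 0.05, and 0 called. Over all genes tested, 1103 of 14702 were below 0 at that p. In kidney 12 of the 33 rose (median 0.91), against 1.58% of all genes, and in heart 0 passed (median 0.27). Col1a1, a chain of type I collagen, held 153, 117, 96.8 and 120 CPM in Sham kidneys and 514, 988, 242 and 444 CPM in NX kidneys. Sham hearts held 484, 384 and 355 CPM and NX hearts 359, 578, 660 and 702 CPM. It rose 4.49-fold in kidney (log2 2.17, SE 0.34, adjusted p = 0.00786), the heart difference was 0.50 (SE 0.36, adjusted p = 0.46), and the organ difference was -1.67 (SE 0.48, adjusted p = 0.166). With single libraries left out it ran from -1.92 to -1.22 and was called in 1 of 15 fits, the one without Kidney NX 3, which is the NX kidney lowest in Col1a1. The highest adjusted p was 0.355. Sparc, a collagen-binding protein, stood at 1441 to 1506 CPM in Sham hearts and 1346 to 1560 CPM in NX hearts, and rose by 0.67 in kidney (SE 0.12, adjusted p = 0.0104). Postn, a matrix protein of activated fibroblasts, rose in kidney by 4.80 (SE 1.11, adjusted p = 0.0391) from 0 to 0.642 CPM in Sham libraries. Its organ difference was -3.40 with an SE of 1.43 (adjusted p = 0.291).

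**Figure D5:**
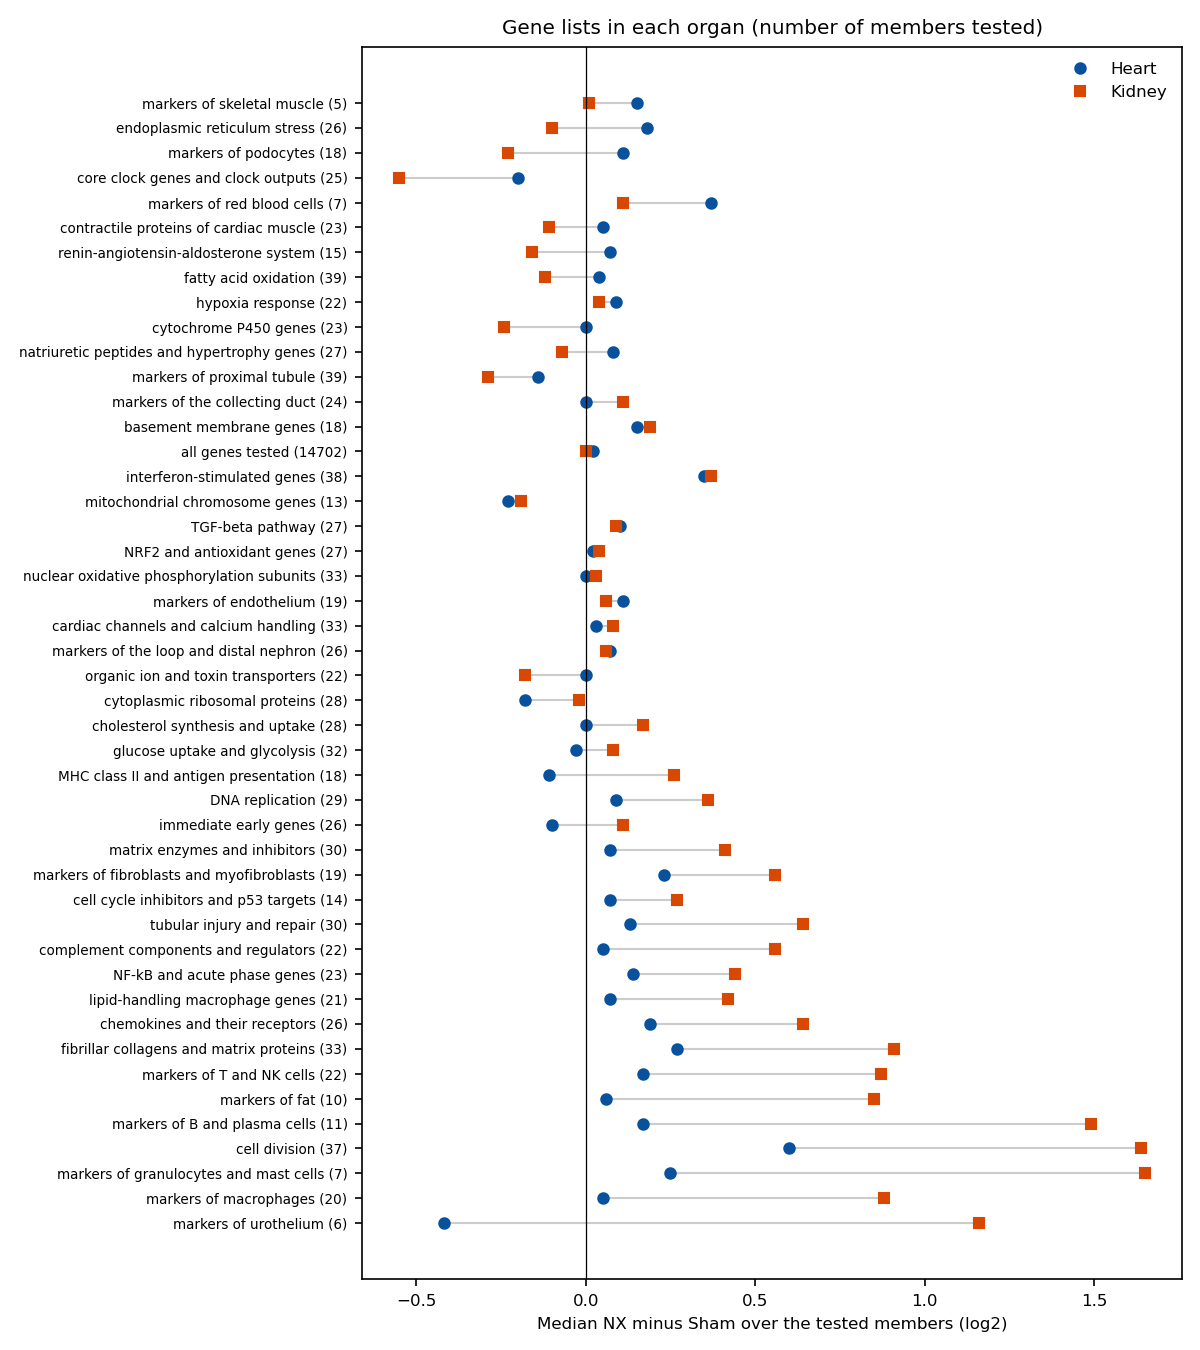
Median log2 difference between NX and Sham over the tested members of each gene list with 5 or more members tested (y axis, number in brackets), in heart (blue circles) and kidney (orange squares). Lists are ordered by their median organ difference, which need not equal the gap between the 2 medians. Cell division stands at 0.60 in heart and 1.64 in kidney, and macrophage markers stand at 0.05 and 0.88.

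Cell division genes were the group with the clearest count in kidney, where 22 of 37 tested members rose, against 1.58% of all genes. The median was 1.64 in kidney and 0.60 in heart, where 0 passed. In heart 11 of the 37 had an unadjusted p below 0.05, all of them above 0, against 1533 of all 14702 genes tested above 0 at that p. The organ difference had a median of -0.92 with 0 called, and 23 of the 37 were at 1 CPM or more in both organs. Mki67, a protein of dividing cells, held 3.86, 6.08 and 4.74 CPM in Sham hearts and 20.8, 9.37, 9.88 and 8.33 CPM in NX hearts. Sham kidneys held 5.65, 4.86, 5.01 and 5.64 CPM and NX kidneys 22.1, 19.1, 13.0 and 20.5 CPM. The groups were apart in both organs, and the heart library with the highest value was NX 1. Mki67 rose 3.54-fold in kidney (log2 1.82, SE 0.25, adjusted p = 0.00171), its heart difference was 1.29 (SE 0.29, adjusted p = 0.0906), and the organ difference of -0.53 (95% interval -1.34 to 0.28, adjusted p = 0.515) did not pass. Summed over the 37 genes, NX hearts held 127, 70.1, 70.7 and 64.7 CPM against 51.1 to 54.1 CPM in Sham hearts, and NX kidneys 137 to 198 CPM against 72.8 to 88.9 CPM in Sham kidneys. Kif11, a spindle motor gene, did not share the pattern, with a kidney difference of -0.17 (SE 0.19) and a heart difference of 1.63 (SE 0.44, adjusted p = 0.116).

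The promoters of 3 cell division genes are shown because these genes moved together in kidney. They are the 3 with the smallest kidney p that have a single promoter in the RefSeq table (build GRCr8) starting at the gene's outermost start. Top2a, a DNA topoisomerase of dividing cells, rose in kidney by 2.56 (SE 0.34, adjusted p = 0.00162), Anln, the cleavage furrow protein anillin, by 2.02 (SE 0.31, adjusted p = 0.00408), and Ckap2, a spindle protein, by 2.29 (SE 0.48, adjusted p = 0.0177). Their heart differences were 1.03, 1.08 and 1.42, with adjusted p from 0.151 to 0.207. The 250 bases before each start are given 5′ to 3′ on the gene's strand, with capitals where CCAAT or TTTGAA occurs on either strand (ATTGG and TTCAAA on the other). The windows are chr10:84473094-84473343 on the minus strand for Top2a, chr8:29197514-29197763 on the minus strand for Anln and chr16:76541864-76542113 on the plus strand for Ckap2.
Top2a: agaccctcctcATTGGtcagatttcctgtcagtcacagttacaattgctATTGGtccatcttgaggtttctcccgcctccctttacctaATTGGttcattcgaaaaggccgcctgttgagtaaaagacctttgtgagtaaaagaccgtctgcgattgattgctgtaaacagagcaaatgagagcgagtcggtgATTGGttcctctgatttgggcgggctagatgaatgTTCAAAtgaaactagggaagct
Anln: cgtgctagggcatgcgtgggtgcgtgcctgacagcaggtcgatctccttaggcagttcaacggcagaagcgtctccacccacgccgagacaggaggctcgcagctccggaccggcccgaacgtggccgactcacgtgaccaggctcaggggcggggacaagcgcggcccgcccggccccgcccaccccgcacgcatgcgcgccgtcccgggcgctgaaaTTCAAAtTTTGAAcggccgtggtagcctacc
Ckap2: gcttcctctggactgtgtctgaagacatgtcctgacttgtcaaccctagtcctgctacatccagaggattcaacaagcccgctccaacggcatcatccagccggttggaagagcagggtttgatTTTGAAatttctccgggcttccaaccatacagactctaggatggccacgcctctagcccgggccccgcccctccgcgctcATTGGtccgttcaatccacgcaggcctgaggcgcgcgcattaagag

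The Top2a window holds 4 matches to CCAAT and 1 to TTTGAA, the Anln window 0 and 2, and the Ckap2 window 1 and 1. CCAAT is the letters of the CCAAT box, bound by NF-Y, and TTTGAA is the core of the cell cycle homology region found in promoters of mitotic genes. Among 31 promoters of 30 of the 37 cell division genes, CCAAT occurred in 64.5% and TTTGAA in 41.9%, against 34.0% and 16.2% of all 33469 promoters in the table. In all, 7 motifs were looked up in 5 lists after values were seen. GGAA, the core of ETS sites, occurred in 13 of 13 promoters of endothelial markers and in 93.2% of all promoters. CCAAT was also frequent in DNA replication (61.5%), macrophage (53.3%) and clock promoters (11 of 22), and TTTGAA in macrophage promoters (33.3%). GGAAG occurred in 84.6% of the endothelial and 93.3% of the macrophage promoters against 63.3% of all, and CACGTG, the E-box of the clock, in 5 of 22 promoters of clock genes against 5.59% of all. TTATGTAA, the D-box, occurred in 0.828% of all promoters and a consensus site of NF-kB in 0.0956%, each in at most 1 promoter of any of the 5 lists. A further spelling, TTCGAA, was looked at in a first pass and not counted here. These matches describe the letters in the windows and were not tested.

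Clock genes passed the adjusted threshold in kidney only, but many had a low unadjusted p in both organs. In kidney 7 of 25 tested members fell, against 1.05% of all genes, and 1 rose (median -0.55). At an unadjusted p below 0.05, 13 were below 0 and 4 above 0 there. In heart 0 passed, with 11 below 0 and 3 above 0 at an unadjusted p below 0.05 (median -0.20). Over all genes tested, 15.4% in kidney and 19.3% in heart had such a p. The organ difference had 0 called and a median of 0.30. Per2, a repressor of the clock, held 53.7, 83.4 and 64.4 CPM in Sham hearts and 23.7, 36.2, 23.7 and 32.2 CPM in NX hearts. Sham kidneys held 49.2, 83.7, 81.6 and 75.2 CPM and NX kidneys 48.2, 28.6, 27.0 and 35.8 CPM. The groups were apart in both organs, though Sham 1 and NX 1 in kidney nearly met. Per2 fell by 1.05 in kidney (SE 0.21, adjusted p = 0.0157), the heart difference was -1.21 (SE 0.23, adjusted p = 0.053), and the organ difference was -0.15 (95% interval -0.81 to 0.50, adjusted p = 0.856). The hour of collection is not given in the sources used here, and its part in these values was not tested.

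A few other genes had effects of the same sign in both organs. Ndrg1, a gene induced by low oxygen and stress, held 26.2, 24.3 and 21.5 CPM in Sham hearts and 40.1, 41.3, 49.5 and 41.0 CPM in NX hearts, and 696 to 970 CPM against 1387 to 2396 CPM in kidneys. It rose in kidney by 1.04 (SE 0.16, adjusted p = 0.00469), with a heart difference of 0.84 (SE 0.19, adjusted p = 0.0906) and an organ difference of -0.20 (95% interval -0.72 to 0.33). Pnrc1, a nuclear receptor coactivator, rose in kidney by 0.47 (SE 0.09, adjusted p = 0.0145) and had an organ difference of -0.08 (95% interval -0.37 to 0.20). Adamts12, a matrix protease, rose in kidney by 0.84 (SE 0.19, adjusted p = 0.0229) and had an organ difference of -0.12 (95% interval -0.67 to 0.43). The sign of the organ difference of Per2, Pnrc1 and Adamts12 turned in some alternative fits. An adjusted p over the threshold does not show that the organs respond alike, and these intervals give the range that the data allow. Interferon-stimulated genes had a median of 0.35 in heart and 0.37 in kidney over 38 tested members. Of these, 1 was called higher in kidney, against 1.58% of all genes, and 0 in heart.

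On the other side, some groups had a median that was higher in heart relative to kidney, with 0 members called. Genes of endoplasmic reticulum stress had a median organ difference of 0.33, with 24 of 26 above 0. Of these, 7 had an unadjusted p below 0.05, against 1114 of all 14702 genes tested. The summed level of the stress genes was high in Heart NX 2 and 3 only, at 4755 and 4496 CPM. The other NX hearts held 3496 and 3523 CPM against 3504 to 3830 CPM in Sham hearts. Ern1, the stress sensor IRE1, held 55.1, 56.2 and 57.4 CPM in Sham hearts and 75.5, 74.4, 77.1 and 77.1 CPM in NX hearts, a difference of 0.44 (SE 0.08, adjusted p = 0.053), against -0.01 (SE 0.08) in kidney and an organ difference of 0.45 (SE 0.11, adjusted p = 0.125). Eif2ak3, the sensor PERK, fell by 0.44 in kidney (SE 0.08, adjusted p = 0.0105), with a heart difference of 0.08 (SE 0.09). Podocyte markers had a median organ difference of 0.32, and 2 of 18 fell in kidney, against 1.05% of all genes. In this list Plce1, a phospholipase C gene that the heart also expresses, fell by 0.50 in kidney (SE 0.12, adjusted p = 0.0315) and had a heart difference of 0.39 (SE 0.13, adjusted p = 0.138).

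Genes of one organ could only be read there. Nppa and Nppb, the natriuretic peptide genes that the stretched heart releases, did not pass in heart, where Nppa differed by 0.72 (SE 0.40, adjusted p = 0.345) and Nppb by 0.78 (SE 0.35, adjusted p = 0.272), and they held at most 0.0843 and 0 CPM in kidney. Nppa held 102, 81.8 and 130 CPM in Sham hearts and 74.5, 106, 248 and 259 CPM in NX hearts, so the groups overlapped. Havcr1, the kidney injury molecule KIM-1, rose in kidney by 1.77 (SE 0.43, adjusted p = 0.0376), from 0.765 to 1.07 CPM in Sham to 1.44 to 5.53 CPM in NX libraries. Umod, Slc34a1, the phosphate transporter of the proximal tubule, and Kl, the klotho gene, had kidney differences of -0.09 (SE 0.16), -0.41 (SE 0.20) and -0.15 (SE 0.17), none of which passed. Of 39 tested markers of the proximal tubule, the kidney's main epithelium, 35 had a kidney difference below 0. Of these, 14 had an unadjusted p below 0.05, against 979 of all 14702 genes tested. Against 1.05% of all genes, 4 of the 39 fell. Among these Cubn, the uptake receptor cubilin, fell by 0.63 (SE 0.13, adjusted p = 0.0184), from 1976 to 2549 CPM in Sham to 1300 to 1857 CPM in NX kidneys. The 39 markers summed to 33902 to 42934 CPM in Sham kidneys and 22507 to 37694 CPM in NX kidneys, highest in NX 3. This stands beside the kidney values of the macrophage, matrix and cell division genes, and its part in them was not tested. No organ difference is given for Nppa, Nppb, Havcr1, Umod, Slc34a1, Kl or Myh7, because each was under 1 CPM on average in the other organ.

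The genes called in kidney were read in the hearts, whose libraries are separate. Hearts and kidneys may still come from the same rats, and both organs share 1 fit, so the readings are not shown to be independent. Of the 233 genes that rose in kidney, 185 were at 1 CPM or more in heart, and 140 of these (75.7%) had a heart difference above 0, with a median of 0.23. Over the 11830 genes at 1 CPM or more in both organs the share was 54.5% and the median 0.03. At an unadjusted p below 0.05 the heart difference was above 0 in 23 of the 185 and in 1444 of the 11830, about the same share. It was below 0 at that p in 2 of the 185 and in 1172 of the 11830, a smaller share of the 185. Of the 155 genes that fell in kidney, 110 were at 1 CPM or more in heart. Of these, 57 had a heart difference above 0 and 53 below 0, with a median of 0.02. At an unadjusted p below 0.05 there were 14 above 0 and 18 below 0. The organ difference itself passed in 4 of the 233 and in 5 of the 155, against 0.109% of all genes tested. The kidney difference that chose these genes is part of the organ difference, so more calls among them are built in.

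The AVF+NX libraries gave values beside these. These values come from the fit of all 23 libraries. The AVF+NX comparison shares the Sham libraries with the NX comparison, so the values are not independent. The heart difference of AVF+NX from Sham was 0.78 (SE 0.15) for Kdr and -1.0 (SE 0.35) for Adra1d, and the kidney difference was -0.41 (SE 0.14) and 2.96 (SE 0.42). For Pla2g7 these were -0.65 (SE 0.24) in heart and 3.39 (SE 0.27) in kidney. For Slc37a2 they were 0.18 (SE 0.23) and 1.99 (SE 0.23). The organ difference with AVF+NX was smaller in size than with NX for Il33 (1.36), Fsd1l (1.26), Vwf (0.75), Slc16a1 (-1.5) and Ankrd13d (-2.12). For Sgms1 it was 0.74, as with NX. It was larger in size for Kdr (1.2), Tcp11l2 (1.02), Fam160a1 (1.14) and Plxna2 (1.05). The same held for Adra1d (-3.96), Pla2g7 (-4.04), Fam78a (-3.15), Slc37a2 (-1.81) and Ubtd1 (-1.67). In the authors' deposited tables of NX against Sham, 91 genes in heart and 819 in kidney had an adjusted p below 0.05. Of the 16 genes, the authors' deposited tables gave 8 in heart (among them Adra1d, Fam160a1, Fam78a, Kdr, Plxna2, Tcp11l2 and Ubtd1) and 9 in kidney (Adra1d, Fsd1l, Il33, Pla2g7, Plxna2, Sgms1, Slc16a1, Slc37a2 and Vwf).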

How the data were processed

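Per the file headers, the authors deposited a whole-number read count per gene and library, with gene positions and a gene length, a score-like column that entered no test. The submitters' processing notes list the tools STAR 2.5.2b, Trimmomatic 0.36, Subread 1.5.2 and featureCounts. Not given in the sources used here were genome build, annotation release and strand setting. The authors also deposited tables of log2 fold changes, p-values and a normalised signal per library; from these only gene symbols (15123 of 32552 identifiers) and which genes had an adjusted p-value below 0.05 were taken. The 21 tested genes whose symbol had been turned into a date were not named.

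The 15 libraries were fitted once in edgeR 4.0.16 (R 4.3.3) with a mean per group, TMM scaling, filterByExpr and robust quasi-likelihood. Genes were called at a Benjamini-Hochberg adjusted p below 0.05 over the 14702 tested. SEs are absolute log2 differences over the root of F. The biological coefficient of variation was 0.166. No pair of replicates agreed within sampling noise (lowest chi-square over its degrees of freedom, 6.22). In simulated counts of 14511 genes the organ difference test recovered 8.96% of genes changed 1.5-fold, 49.3% of those changed 2-fold and 87.9% of those changed 4-fold, with 10 false among 107 calls. Alternatives were other scalings and filters, all 23 libraries, DESeq2 1.42.0, limma 3.58.1 voom with quality weights, replicate blocks, depth and small RNA covariates, a fold threshold and each library left out.

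The members and lists were chosen with earlier results of these data known. Named genes were the called genes with an informative symbol (up to 10 by p and 5 by size in each direction at 1 CPM or more in both organs, and up to 4 in each direction below it), 3 members of each list with a call, 5 of opposite and 5 of the same sign in both organs, and 12 fixed genes, of which Lcn2 and Spp1 are given with the processing alternatives. Genes given as examples of lists, those just outside the threshold and Penk stand outside this rule. Of the 16 called genes, 1 is not reported here.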

Additional observations from a re-analysis of the deposited data

Results flagged for a closer look

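The test of the organ difference itself flagged the called genes, of which 15 are given here. On the log2 scale, heart minus kidney, the values above 0 were 1.57 for Il33, 1.5 for Fsd1l, 1.18 for Vwf, 0.97 for Kdr, 0.89 for Tcp11l2, 0.86 for Fam160a1, 0.85 for Plxna2 and 0.74 for Sgms1. The values below 0 were -2.79 for Adra1d, -2.76 for Ankrd13d, -1.88 for Slc16a1, -1.87 for Pla2g7, -1.69 for Fam78a, -1.57 for Slc37a2 and -1.08 for Ubtd1.

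Single libraries stood far from the other 3 of their group in 2 of the 45 groups of 4 checked over these genes (gap over range above Dixon's 95% critical value, which chance alone passes in some groups). Ankrd13d was at 1.71 CPM in Kidney NX 3, below 2.36 to 2.41 CPM in the other NX kidneys. Fam160a1 was at 33.3 CPM in Kidney NX 3, above 29.8 to 30.2 CPM in the others.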

How the results depend on the processing

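The organ difference passed in 0 to 142 genes when single libraries were left out, in 0 without Heart NX 2 and 3 together (chosen after seeing the data), in 0 with the small RNA index, in 8 with depth as a covariate, in 10 with a fold threshold of 2, in 283 with DESeq2 and in 1390 with limma voom and quality weights. Unadjusted p-values below 0.05 numbered 1326 without Heart NX 2 and 3 and 1266 with the small RNA index. The other scalings and filters and the fit of all 23 libraries gave 13 to 24. The heart response passed in 0 to 970 genes with single libraries left out, in 52 with all 23 libraries, in 420 with DESeq2, in 2426 with voom, in 2 with the small RNA index, in 2 without Heart NX 2 and 3 and in 1 with the fold threshold. The kidney response passed in 87 to 935 genes with single libraries left out, in 764 with DESeq2, in 1354 with voom, in 686 with depth, in 131 with the small RNA index and in 207 with the fold threshold, which by construction only removes genes. The cause of the other shifts was not tested.

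The main fit did not treat replicate numbers as pairs, because the labels give no such tie. Correlations of deviations from group means were low and do not settle the question. Same-numbered hearts and kidneys of 1 surgery had r from -0.04 to 0.107 (median 0.08, 7 pairs, 1 over 0.1). Other-numbered ones had r from -0.184 to 0.084 (median -0.029). Of 14 libraries, 8 correlated best with their own number in the other organ. Same-numbered NX and Sham libraries cannot come from 1 animal, yet some correlated more. Kidney NX 1 and Kidney Sham 1 had r of 0.273, and Kidney NX 3 and Kidney Sham 3 had 0.231. Same-numbered pairs over any 2 groups ran from -0.065 to 0.273 (median -0.005, 21 pairs). Whether animals were shared cannot be told from these values. With the number as a replicate block over all groups the organ difference passed in 19 genes, the heart response in 9 and the kidney response in 434. With same-numbered organs as 1 animal the organ difference passed in 0 (1699 by unadjusted p), and that block gives no value for a single organ.

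Among the named genes for which an organ difference is given, the sign turned for 4 uncalled ones. Per2 (-0.15) went to 0.03 without Heart Sham 2 and 0.04 without Kidney NX 1 (range over left-out libraries -0.29 to 0.04). Adamts12 (-0.12) went to 0.03 without Heart NX 4 and 0.03 without Heart Sham 1 (range -0.24 to 0.03). Pnrc1 (-0.08) went to 0.00 with depth and 0.03 without Heart NX 2 and 3. Spp1 (-0.17, SE 0.78), the osteopontin gene, went to 0.51 with voom, 0.17 with the animal block, 0.88 without Heart Sham 2 and 0.26 without Kidney NX 4 (range -0.70 to 0.88). Lcn2 stood at -2.62 (SE 1.5, adjusted p = 0.42). In the simulated counts, which held no shifts of whole libraries, most 1.5-fold differences were missed.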
